A study of Homo sapiens with 28 samples.

Results

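Human melanoma cells of the CHL-1 line were exposed to 75 nM of the BET bromodomain inhibitor BAY1238097 for 4 h and set against cells that received the solvent dimethyl sulfoxide (DMSO) for the same time. CHL-1 is an established skin melanoma line obtained from the American Type Culture Collection, grown in serum-containing medium and seeded on the day before treatment. The comparison holds 9 of the 28 arrays of the series, namely those titled with 75 nM and 4 h (5 arrays) and those titled with the DMSO vehicle and 4 h (4 arrays). The other 19 arrays are 468 nM at 4 h (5 arrays), DMSO at 24 h (4 arrays), 75 nM at 24 h (5 arrays) and 468 nM at 24 h (5 arrays). The series' design calls 75 nM the IC50 and 468 nM the IC90 of the compound in this line, so 75 nM at 4 h is the lower dose at the earlier time. Total RNA was hybridised to Affymetrix gene arrays, and the deposited intensities had been summarised by RMA. Values below are log2 of those intensities, so a difference of 1 is a doubling.

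BET proteins are chromatin readers that bind acetylated histone tails through paired bromodomains. They help the elongation kinase complex P-TEFb, made of CDK9 and a T-type cyclin, to release paused RNA polymerase II into genes. P-TEFb is held inactive in a ribonucleoprotein with HEXIM1 and the 7SK RNA, and release of P-TEFb from that store is a known early event after BET inhibitors. NF-kB, a dimeric transcription factor controlled by inhibitors that it induces itself, is one of the factors whose target genes depend on BET proteins in many cells.

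Of the melanocyte lineage genes, SOX10 averaged 9.61 on the DMSO arrays at 4 h, and ERBB3, OCA2, SNAI2, PAX3 and S100B were also above the intensity filter. MITF, the master regulator of pigment cells, averaged 2.67 there and did not exceed 3.66 on any of the 28 arrays, and the pigment genes PMEL, MLANA, TYR and TYRP1 were below the filter too. No keratinocyte or endothelial marker was bright enough to be tested. RMA scales every array to a common distribution, so a shift of all messages in the same direction cannot be seen. The labels do not tell whether the arrays within a group stem from different cultures. The p-values therefore reflect the scatter of these particular arrays, which could be technical, and precision is bounded by how few arrays there are.

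At 75 nM and 4 h, 31 genes were higher and 32 were lower than in DMSO. These 63 genes are 0.679% of the 9285 tested (limma, adjusted p below 0.05), 0.334% being higher and 0.345% lower. Genes that rose included the P-TEFb inhibitor HEXIM1, the P-TEFb cyclin CCNT2 and the BET gene BRD2. SERTAD1, GADD45A, SESN3 and SESN1, members of a list of stress and p53 target genes, rose too. Genes that fell included the NF-kB feedback inhibitor TNFAIP3, the TNF receptor adaptor TRAF1, the cytokine CSF1, the growth factors FGF7 and PDGFB and the neuronal connexin GJD2. Changes were small: 2 rises and 10 falls reached 2-fold, the median called rise was 1.62-fold and the median called fall 1.73-fold. With quantile normalization of the deposited values repeated, 39 genes were called higher and 25 lower. Of the 63, 61 are protein-coding in RefSeq and 2 are long non-coding RNAs (STEAP1B-AS1 and GRASLND).

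**Figure D1:**
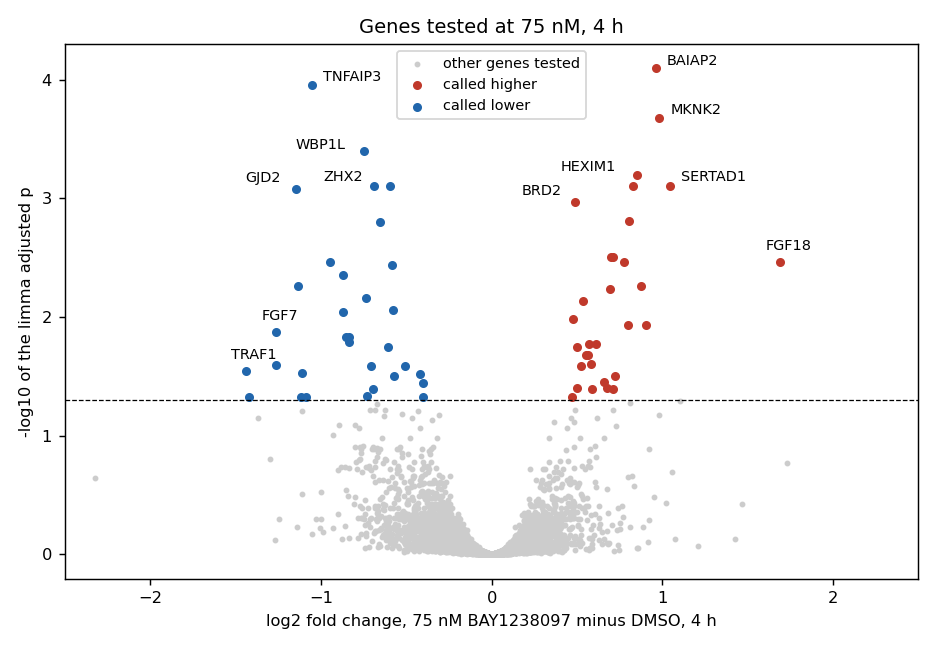
Each point is 1 of the 9285 genes tested; the x axis is the log2 fold change of the 75 nM arrays over the DMSO arrays at 4 h, and the y axis is the negative log10 of limma's adjusted p, with the dashed line at 0.05. The 31 red and 32 blue points above the line are the called genes; BAIAP2 and TNFAIP3 are the highest points on their sides, and FGF18 lies furthest right among the called genes.

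For 59 of the 63 genes no array of one group overlapped the range of the other, against 345 of all 9285 genes (3.72%, with 1.37% higher and 2.35% lower). The exceptions were STEAP1B-AS1, NEK6, MAP2K3 and IFFO2, in each of which the ranges overlapped. The 63 genes were called on these same arrays, so their separation is no further evidence for them. The titles carry running codes, and the arrays fall into sets of 26 codes, 4 of which hold both a DMSO and a 75 nM array at 4 h. Leaving out each of the 9 arrays in turn kept 27 of the 63 calls every time, lost 8 in 1 to 3 of the fits and lost 28 in over 3. The count itself fell to 39 without DMSO array 1 and to 39 without DMSO array 2, and 37 of the 63 genes were among those called in each case. With only the 9 arrays of the comparison fitted, 31 genes were called, 25 of them among the 63. Losses under this fit and the other alternatives are given below for some genes, not for all. Of the 63, 3 rises (FGF18, BAIAP2 and CD68) and 5 falls (TRAF1, DUSP8, MAMDC2, PDGFB and MEIS1) had fewer than 4 arrays above the filter outside the side, DMSO or compound, where they are higher. Without a filter FGF18, BAIAP2 and PDGFB were called and the other 5 were not (limma adjusted p 0.110 to 0.175).

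The message of HEXIM1, whose protein holds P-TEFb inactive, rose. Its values were 7.24, 7.14, 6.76 and 7.12 on DMSO arrays 1 to 4 and 8.0, 7.96, 7.72, 7.93 and 7.96 on 75 nM arrays 1 to 5. The lowest 75 nM array was above the highest DMSO array. The rise was 0.85 ± 0.13 (SE) on the log2 scale, 1.80-fold, with a 95% interval of 0.59 to 1.11 (limma adjusted p = 0.000628). CCNT2, the cyclin T2 that partners CDK9, was at 5.43, 5.29, 5.28 and 5.45 in DMSO and 5.92, 5.87, 5.94, 5.96 and 5.80 at 75 nM. The groups were apart by more than the range within either, and the rise was 0.54 ± 0.10 (1.45-fold, limma adjusted p = 0.00726, and 0.0549 without a filter). Of 27 tested genes of P-TEFb and elongation, these 2 were called higher (0.334% of all genes tested) and no member was called lower. The median change of the list was 0.02, beside a median of -0.02 over all genes tested, and 15 of the 27 values lay above 0, beside 44.2% of all genes. Among the members that did not pass, HEXIM2, the paralog of HEXIM1, had a difference of -0.33 (95% interval -0.84 to 0.18, limma adjusted p = 0.832). LARP7, which stabilises 7SK, had -0.25, and the super elongation complex scaffold AFF4 had 0.22.

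Both called genes have an entry in RefSeq's promoter table for GRCh38.p14, and the 250 bases before each annotated start are shown because the genes rose together. Capitals mark matches on either strand to the motifs searched. The TATA box was searched as TATAAA. For the E-box that MYC and its partners bind, the letters were CACGTG. The site of AP-1 dimers was searched as TGANTCA, and the NF-kB site by its consensus.
HEXIM1, chr17:45148225-45148474, plus strand: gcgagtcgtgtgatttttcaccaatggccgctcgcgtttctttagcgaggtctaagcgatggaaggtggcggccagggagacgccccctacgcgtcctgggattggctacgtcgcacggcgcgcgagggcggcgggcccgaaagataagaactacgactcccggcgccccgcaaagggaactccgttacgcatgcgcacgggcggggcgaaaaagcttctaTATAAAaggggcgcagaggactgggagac
CCNT2, chr2:134918572-134918821, plus strand: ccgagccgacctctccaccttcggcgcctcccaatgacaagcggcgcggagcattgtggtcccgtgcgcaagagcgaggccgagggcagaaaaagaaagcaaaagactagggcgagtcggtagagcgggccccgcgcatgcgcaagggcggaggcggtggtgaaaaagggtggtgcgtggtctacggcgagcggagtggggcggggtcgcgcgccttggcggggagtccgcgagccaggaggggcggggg
The HEXIM1 window holds TATAAA from 29 to 24 bases before the start, and the CCNT2 window holds none of the letters searched. TATAAA occurs in 11.1% of the 27305 promoter windows of this length and in 4.89% of those of genes tested here. It occurs in 5 of the 27 windows found for genes called higher (BAIAP2, GTF2B, HEXIM1, MKNK2 and ZSWIM6) and in 2 of the 23 found for genes called lower (KLF5 and MAMDC2). A match is a run of letters and was not tested as a site.

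BRD2 encodes a BET protein that reads acetylated histones across active genes. Its message rose from 9.97, 10.03, 9.84 and 9.73 in DMSO to 10.30, 10.48, 10.43, 10.37 and 10.32 at 75 nM. No DMSO array reached the lowest 75 nM array. The rise was 0.49 ± 0.08 (1.41-fold, limma adjusted p = 0.00108). BRD2 has 14 probe sets, of which the 7 brightest averaged 7.22 to 10.08 and differed by 0.40 to 0.50. A dim one, averaging 3.92, differed by 0.59, while 6 dim ones with identical values, averaging 3.66, differed by -0.23. With the mean of all 14 in place of the brightest, the call was lost (limma adjusted p = 0.838), as it was with only the 9 arrays fitted (0.0671). BRD3, the BET paralog, was at 5.49, 5.62, 5.51 and 5.69 in DMSO and 5.43, 5.78, 5.75, 5.96 and 5.60 at 75 nM. These ranges overlapped, and the difference of 0.13 (95% interval -0.17 to 0.43) was not called (limma adjusted p = 0.914).

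ZMYND8, a bromodomain reader of acetylated histones and a chromatin partner of BET proteins, fell from 7.22, 7.02, 7.16 and 7.02 to 6.67, 6.52, 6.71, 6.40 and 6.36. The groups did not overlap. The fall was -0.57 ± 0.13 (1.49-fold, limma adjusted p = 0.0312), but the call was lost in 7 of the 9 leave-one-out fits (adjusted p 0.0598 to 0.136) and kept only without 75 nM array 1 or 75 nM array 3. Of 22 tested BET genes and chromatin partners, BRD2 was called higher and ZMYND8 lower, and the median change was 0.02. Over all genes tested, 0.334% were called higher and 0.345% lower. The next largest values were -0.28 for ATAD5 and -0.24 for the JmjC-domain hydroxylase gene JMJD6, neither of which passed.

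In the list of stress and p53 target genes, 4 of 15 tested members were called higher (0.334% of all genes tested) and none lower, and the median change was 0.25. Like the other lists, it was chosen with earlier results of these data known. SERTAD1, a transcriptional coregulator that binds CDK4, was at 6.51, 6.70, 6.38 and 6.79 in DMSO and 7.53, 7.50, 7.84, 7.53 and 7.81 at 75 nM. Every 75 nM array was above every DMSO array, and the rise of 1.05 ± 0.16 was 2.06-fold (limma adjusted p = 0.000792). GADD45A, a DNA-damage and growth-arrest gene, stood at 5.86, 6.31, 5.80 and 6.01 in DMSO and at 6.94, 6.76, 6.98, 6.77 and 6.91 at 75 nM. Again the groups were separate, with a rise of 0.88 ± 0.16 (1.84-fold, limma adjusted p = 0.00545).

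Sestrins restrain mTOR signalling under stress, and 2 of them passed. SESN3 went from 5.71, 5.67, 5.93 and 5.86 to 6.86, 6.77, 6.53, 6.34 and 6.44, and SESN1 from 5.76, 5.70, 5.40 and 5.93 to 6.30, 6.08, 6.16, 6.45 and 6.88. Neither gene had an overlap between the groups. The SESN3 rise was 0.80 ± 0.16 (1.74-fold, limma adjusted p = 0.0116) and was lost without DMSO array 1 (0.0501) or DMSO array 2 (0.0557). The SESN1 rise was 0.68 ± 0.16 (1.60-fold, limma adjusted p = 0.0392) and was lost in 6 of the 9 leave-one-out fits (0.0664 to 0.192), being kept without 75 nM array 2, 75 nM array 3 or DMSO array 4. It was also lost with only the 9 arrays fitted (limma adjusted p = 0.183). SESN2 had a value of 0.58 and did not pass (limma adjusted p = 0.128), nor did SERTAD2 at 0.34 and GADD45B at 0.27. MDM2, the p53 target that degrades p53, had -0.25 (adjusted p = 0.617). CDKN1A, the p53 target that inhibits cyclin-dependent kinases, was below the filter.

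Kinases and feedback regulators of MAP kinase signalling moved in both directions. MKNK2, a kinase downstream of MAP kinases that phosphorylates the cap-binding translation factor eIF4E, was at 6.27, 6.53, 6.42 and 6.50 in DMSO and 7.38, 7.46, 7.54, 7.48 and 7.22 at 75 nM. ERRFI1, a feedback inhibitor of the EGF receptor, was at 7.23, 7.15, 7.05 and 7.27 and then 7.95, 7.97, 7.85, 7.76 and 7.89. In both genes the 75 nM arrays all lay above the DMSO arrays. The rises were 0.98 ± 0.13 for MKNK2 (1.98-fold, limma adjusted p = 0.000208) and 0.71 ± 0.12 for ERRFI1 (1.64-fold, limma adjusted p = 0.00313). DUSP8, a phosphatase that inactivates stress-activated MAP kinases, fell from 5.54, 5.59, 5.37 and 5.21 to 4.00, 4.59, 4.08, 5.07 and 3.83. 75 nM array 4 came close to the lowest DMSO array without overlap. The fall was -1.11 ± 0.27 (2.16-fold, limma adjusted p = 0.0473) and was lost in 8 of the 9 leave-one-out fits (0.0554 to 0.155), being kept only without 75 nM array 4. These 3 were the calls among 21 tested MAP kinase feedback genes (0.679% of all genes tested were called), whose median change was 0.07. SPRY1 and SPRY2, inhibitors of receptor tyrosine kinase signalling, had -0.62 (limma adjusted p = 0.517) and -0.48 (limma adjusted p = 0.105, and 0.0229 with the code sets as a block), and MKNK1 had 0.57 (0.179, and 0.0301 with the block). Outside the list, MAP3K3 rose by 0.56 ± 0.12 and MAP2K3, which activates p38 kinases, by 0.55 ± 0.12 (limma adjusted p = 0.0208 and 0.0209). Both were lost in 5 of the 9 leave-one-out fits (0.0509 to 0.0796 and 0.0510 to 0.114).

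Among 23 tested AP-1 and immediate early genes only IER5, an immediate early gene that cooperates with heat shock factor, was called. It was at 5.33, 5.20, 5.47 and 5.65 in DMSO and 6.13, 6.66, 5.98, 6.52 and 6.30 at 75 nM. The groups did not overlap, and the rise was 0.91 ± 0.18 (1.87-fold, limma adjusted p = 0.0116), lost without DMSO array 2 (0.0613). EGR1, JUND and JUN had the next largest values, 0.84, 0.71 and 0.56, and none passed (limma adjusted p = 0.265, 0.0611 and 0.331). JUND passed with the code sets as a block (adjusted p = 0.0428). The list's median change was 0.14, and 13 of its 23 values were above 0, beside 44.2% of all genes. Of all genes tested, 0.334% were called higher.

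**Figure D2:**
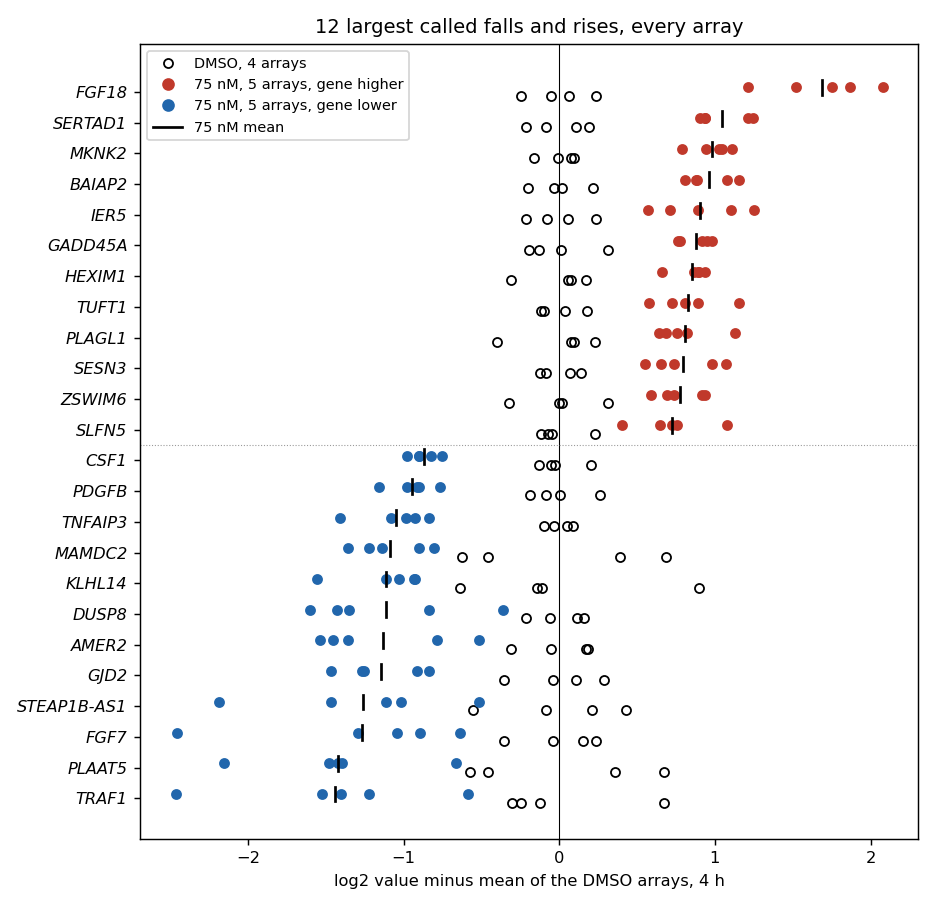
Each row is a gene, for the 12 largest called rises and the 12 largest called falls; the x axis is the log2 value on each array minus the mean of the 4 DMSO arrays (open circles), filled circles are the 5 arrays at 75 nM, and black bars are their means. FGF18 is the furthest right; STEAP1B-AS1 is the one row where the groups overlap, and TRAF1, PLAAT5, FGF7 and STEAP1B-AS1 have the widest spread at 75 nM.

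The largest rise belonged to FGF18, a secreted fibroblast growth factor. Its values were 3.31, 3.14, 3.03 and 2.83 in DMSO and 4.29, 5.16, 4.60, 4.94 and 4.83 at 75 nM. The groups were far apart, but both means lay under the filter of 5. FGF18 exceeded that filter on 4 arrays at 468 nM and 4 h and on 1 at 75 nM and 4 h, and on no DMSO or 24 h array, so it was testable only through the groups where it is high. The rise was 1.69 ± 0.30 (3.22-fold, 95% interval 1.07 to 2.30, limma adjusted p = 0.00344, and 0.0201 without a filter). BAIAP2, an adaptor of the actin cytoskeleton that bends membranes, was at 5.21, 5.01, 4.79 and 4.96 in DMSO and 5.80, 6.15, 6.07, 5.88 and 5.87 at 75 nM. It had the smallest adjusted p of all genes (limma, 7.74e-05), with separate groups and a rise of 0.96 ± 0.12 (1.95-fold).

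TUFT1, which encodes tuftelin, went from 5.27, 5.55, 5.25 and 5.41 to 6.09, 5.94, 6.52, 6.18 and 6.26. PLAGL1, an imprinted zinc finger transcription factor, went from 5.17, 5.80, 5.64 and 5.67 to 6.33, 6.21, 6.70, 6.26 and 6.39. Both were separate between the groups, with rises of 0.83 ± 0.13 and 0.81 ± 0.13 (1.78-fold and 1.75-fold, limma adjusted p = 0.000792 and 0.00155; PLAGL1 was not called with only the 9 arrays fitted, 0.0605). ZSWIM6 stood at 8.41, 8.70, 8.07 and 8.39 in DMSO and 9.33, 9.13, 9.31, 8.98 and 9.08 at 75 nM, and SLFN5, a Schlafen family gene, at 7.49, 7.84, 7.57 and 7.54 and then 8.34, 8.25, 8.69, 8.01 and 8.36. Neither showed overlap; the rises were 0.77 ± 0.14 (1.71-fold, limma adjusted p = 0.00344) and 0.72 ± 0.16 (1.65-fold, limma adjusted p = 0.0316). The SLFN5 call was lost in 7 of the 9 leave-one-out fits (0.0542 to 0.128) and kept without DMSO array 2 or 75 nM array 4.

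CD68, a lysosomal membrane protein also used as a macrophage marker, was at 4.29, 4.39, 4.54 and 4.49 in DMSO and 5.15, 5.21, 5.15, 5.21 and 4.99 at 75 nM. The groups were separate at a low intensity, and the rise was 0.71 ± 0.17 (1.64-fold, limma adjusted p = 0.0405). No DMSO array and no 24 h array of CD68 exceeded the filter of 5, so the gene was testable only through 4 arrays at 75 nM and 3 at 468 nM, where it is high; without a filter it was not called (0.169). This call was lost in each of the 9 leave-one-out fits (0.0539 to 0.157) and with the code sets as a block (0.0648). CD68 is the 1 leukocyte marker of 10 that was tested; 8 were below the filter and 1 has no probe set of its own. The leukocyte list's summed level, which includes CD68 itself, ran from 5.80 to 5.94 (log2) over the DMSO arrays and from 6.09 to 6.52 over the 75 nM arrays. That difference is therefore not separate from the CD68 call. PTPRC, the pan-leukocyte marker, averaged 2.83 and 2.92 in the same groups and CD14 2.42 and 2.23. Of the 17 lysosome and autophagy genes tested, none was called, with a median change of 0.02.

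The other called rises had varied roles. TOB1, an antiproliferative adaptor of mRNA deadenylation, rose by 0.70 ± 0.12 (limma adjusted p = 0.00313), and B3GNT2, an enzyme that extends polylactosamine chains, by 0.69 ± 0.13 (limma adjusted p = 0.00581). TIPARP, a mono-ADP-ribosyltransferase, rose by 0.61, PPP1R13B, which encodes the p53-binding protein ASPP1, by 0.58, and the deacetylase SIRT1 by 0.57. The general transcription factor gene GTF2B rose by 0.50, the ubiquitin ligase genes SYVN1 and RNF19B by 0.52 and 0.47, and the epoxide hydrolase gene EPHX1 by 0.50. ZKSCAN2 and ZKSCAN1, both zinc finger genes, rose by 0.66 and 0.47, and IFFO2 by 0.59 (not called with the code sets as a block, limma adjusted p = 0.0623). TOB1 and B3GNT2 kept their calls in all 9 leave-one-out fits. Without a filter, TOB1 and B3GNT2 were called and the other rises of this paragraph were not (limma adjusted p 0.0771 to 0.213). RNF19B lost its call without DMSO array 1 (limma adjusted p = 0.0586), and SIRT1 without DMSO array 3 (0.0763) or 75 nM array 4 (0.0534). With arrays shifted to level the reference genes, neither RNF19B (0.0986) nor SIRT1 (0.131) was called, nor was RNF19B with only the 9 arrays fitted (0.0892). ZKSCAN1 and ZKSCAN2 were each lost in 8 of the 9 fits, GTF2B in 7, IFFO2 and SYVN1 in 6, PPP1R13B in 5, and TIPARP and EPHX1 in 4.

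Called falls in the NF-kB and TNF receptor lists were TNFAIP3, TRAF1 and CSF1, 1 each of 16, 13 and 6 tested members (0.345% of all genes tested were called lower). TNFAIP3, the ubiquitin-editing enzyme A20 that NF-kB induces and that shuts NF-kB off, was at 7.88, 7.69, 7.75 and 7.84 in DMSO and 6.38, 6.86, 6.81, 6.95 and 6.71 at 75 nM. The highest 75 nM array lay well under the lowest DMSO array. The fall was -1.05 ± 0.13, 2.07-fold, with a 95% interval of -1.32 to -0.78 (limma adjusted p = 0.000107). TRAF1, an adaptor of TNF receptors, was at 4.81, 4.76, 4.94 and 5.73 in DMSO and 3.83, 2.59, 3.65, 3.54 and 4.47 at 75 nM. It had no overlap but a wide spread (SD 0.45 and 0.68), and the fall of -1.44 ± 0.32 (2.71-fold, limma adjusted p = 0.0285) was lost in 6 of the 9 leave-one-out fits (0.0509 to 0.136), being kept without 75 nM array 1, 75 nM array 5 or DMSO array 2. TRAF1 was also not called with only the 9 arrays fitted (limma adjusted p = 0.141). CSF1, the macrophage growth factor, was at 7.01, 6.91, 7.24 and 6.99 in DMSO and 6.14, 6.21, 6.05, 6.28 and 6.13 at 75 nM. The groups were separate and tight, with a fall of -0.87 ± 0.17 (1.83-fold, limma adjusted p = 0.00907).

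The windows of TNFAIP3 and TRAF1 are shown in the same way, because both genes belong to the pathway whose motif was searched; for CSF1 the table holds none.
TNFAIP3, chr6:137867009-137867258, plus strand: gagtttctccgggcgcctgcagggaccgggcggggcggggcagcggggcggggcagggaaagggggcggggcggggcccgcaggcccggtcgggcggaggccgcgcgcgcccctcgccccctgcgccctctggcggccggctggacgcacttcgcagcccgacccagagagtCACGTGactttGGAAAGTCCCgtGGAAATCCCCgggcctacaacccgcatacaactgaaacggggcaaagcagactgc
TRAF1, chr9:120929172-120929421, minus strand: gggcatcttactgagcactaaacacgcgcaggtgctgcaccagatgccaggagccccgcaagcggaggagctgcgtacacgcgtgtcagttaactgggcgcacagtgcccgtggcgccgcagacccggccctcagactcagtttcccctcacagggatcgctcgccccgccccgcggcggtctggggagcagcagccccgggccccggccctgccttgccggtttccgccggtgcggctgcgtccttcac
TNFAIP3 holds 2 matches to the NF-kB consensus, read on the opposite strand, from 67 to 58 and from 55 to 46 bases before the start, and an E-box from 78 to 73; TRAF1 holds none of the letters searched in this window. The NF-kB consensus occurs in 9.57% of all promoter windows and in 11.5% of those of tested genes. It occurs in 6 of 27 windows of genes called higher and in 3 of 23 of genes called lower. The E-box occurs in 6.49% of all windows, in 9.09% of those of tested genes, and in 2 of 27 and 2 of 23. The AP-1 letters occur in 6.60% of all windows, in 3.09% of those of tested genes, and in 2 of 27 and 0 of 23.

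The rest of the NF-kB list did not pass. Of 16 tested subunits and inhibitors TNFAIP3 was the 1 called; NFKBIE, an inhibitor of the IkB family, had 0.48 (limma adjusted p = 0.451), BCL3 -0.39, the subunit NFKB1 -0.33 and REL 0.27. Only 6 NF-kB target cytokines and effectors were bright enough to be tested, 17 of the others being below the filter and 3 without a probe set of their own. CSF1 was called among them and 5 of the 6 values were below 0, beside 5179 of the 9285 over all genes. Of 13 TNF receptors and adaptors, TRAF1 was called and 10 values were below 0 (5179 of 9285 over all genes), with a median of -0.18. The decoy receptor TNFRSF11B had -1.0 (95% interval -1.72 to -0.28, limma adjusted p = 0.296), the adaptor TRAF5 -0.61 (0.239), and TNFRSF12A, the TWEAK receptor, 0.60 (0.243).

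IL6, the inflammatory cytokine often used to follow BET inhibitors, varied widely. It was at 7.11, 8.67, 6.37 and 7.97 in DMSO and at 7.55, 5.33, 7.76, 5.68 and 6.08 at 75 nM. The ranges overlapped, and the difference of -1.05 ± 0.59 (95% interval -2.26 to 0.16) did not pass (limma adjusted p = 0.667). STEAP1B-AS1, a long non-coding RNA gene that lies near IL6 in RefSeq's gene order, was called. It was at 6.30, 6.52, 5.53 and 6.0 in DMSO and at 4.62, 5.07, 4.97, 3.90 and 5.57 at 75 nM, the highest 75 nM array lying just above the lowest DMSO array. The fall was -1.26 ± 0.28 (2.40-fold, limma adjusted p = 0.0253) and was lost in 5 of the 9 leave-one-out fits (0.0591 to 0.114). It was also lost with only the 9 arrays fitted (limma adjusted p = 0.170). Whether the array's probes for this antisense gene read strand is not given in the sources used here.

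Secreted growth factors fell as well as rose. FGF7, a fibroblast growth factor for epithelial cells, was at 6.70, 6.61, 6.11 and 6.42 in DMSO and 5.82, 5.42, 5.56, 4.00 and 5.16 at 75 nM. PDGFB, the B chain of platelet-derived growth factor, was at 5.84, 5.74, 5.93 and 6.19 and then 5.16, 5.02, 5.03, 4.95 and 4.77. All 75 nM arrays were below all DMSO arrays in both genes, and 75 nM array 4 was the lowest for FGF7 by over a log2 unit. The falls were -1.26 ± 0.26 for FGF7 (2.40-fold, limma adjusted p = 0.0134, lost without DMSO array 1 at 0.0595 or DMSO array 2 at 0.0568) and -0.94 ± 0.17 for PDGFB (1.92-fold, limma adjusted p = 0.00344). With FGF18 these were the 3 calls among 17 tested growth factors and receptors (0.679% of all genes tested were called), whose median was -0.12. FGF9 and the receptor FGFR2, each at -0.35, did not pass.

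GJD2, a connexin of neuronal gap junctions, was at 10.16, 9.98, 9.52 and 9.83 in DMSO and 8.41, 8.61, 8.62, 8.96 and 9.04 at 75 nM. The groups were separate, and the fall was -1.15 ± 0.18 (2.22-fold, limma adjusted p = 0.000838). Of 4 tested gap junction genes it was the 1 called (0.345% of all genes tested were called lower). GJB1 had 0.52, GJC1 0.14 and PANX1 -0.08, and none of them passed.

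AMER2, a regulator of Wnt signalling, was at 6.64, 6.89, 6.87 and 6.39 in DMSO and 5.24, 5.34, 5.92, 6.18 and 5.16 at 75 nM. The groups were separate, the fall was -1.13 ± 0.21 (2.19-fold, limma adjusted p = 0.00547), and the call was kept in all leave-one-out fits but not with only the 9 arrays fitted (0.0681). PLAAT5, an acyltransferase of lipid metabolism, was at 6.17, 5.24, 6.49 and 5.36 and then 3.66, 5.15, 4.33, 4.42 and 4.39. KLHL14, a kelch family gene, was at 7.91, 6.87, 6.90 and 6.37 and then 5.98, 6.08, 5.90, 6.09 and 5.46. MAMDC2, a secreted proteoglycan gene, was at 5.53, 6.55, 5.70 and 6.84 and then 5.25, 5.01, 4.93, 4.80 and 5.35. None of the 3 overlapped between groups, but the DMSO arrays were widely spread (SD 0.61, 0.64 and 0.64). The falls were -1.42 ± 0.34, -1.11 ± 0.25 and -1.08 ± 0.26 (limma adjusted p = 0.0473, 0.0295 and 0.0473). The calls of PLAAT5 and MAMDC2 were lost in 7 of the 9 leave-one-out fits and that of KLHL14 in 6, with the largest adjusted p of PLAAT5 (0.234) without DMSO array 3, of MAMDC2 (0.235) without DMSO array 4 and of KLHL14 (0.179) without DMSO array 1.

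Genes of several transcription factors were among the remaining falls. The log2 change was -0.87 ± 0.16 for PRDM10, a zinc finger gene (limma adjusted p = 0.00442), -0.85 ± 0.18 for the Krüppel-like factor KLF5 (0.0148) and -0.83 ± 0.17 for the MYC-induced factor TFAP4 (0.0148). It was -0.69 ± 0.11 for ZHX2, a zinc finger and homeobox repressor (limma adjusted p = 0.000792), and -0.40 ± 0.10 for FOXN2, a forkhead gene (0.0473). MEIS1, a homeobox gene with both group means under the filter of 5, changed by -0.71 ± 0.16 (limma adjusted p = 0.0258). The PRDM10 and ZHX2 calls held in all 9 leave-one-out fits. KLF5 lost its call without DMSO array 2 (0.0919), DMSO array 4 (0.0762) or 75 nM array 4 (0.0555), TFAP4 without DMSO array 1 (0.0586) or 75 nM array 3 (0.0551), MEIS1 in 6 fits and FOXN2 in 7. With only the 9 arrays fitted, KLF5 (limma adjusted p = 0.149), MEIS1 (0.0612) and FOXN2 (0.216) were not called.

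Other falls had varied roles. The log2 change was -0.75 ± 0.11 for WBP1L (limma adjusted p = 0.000404), -0.73 ± 0.14 for TBC1D2B, a Rab GTPase regulator (0.00686), and -0.65 ± 0.11 for the liprin gene PPFIBP2 (0.00158). It was -0.59 ± 0.09 for SH3RF2 (limma adjusted p = 0.000792), -0.59 ± 0.10 for LMCD1 (0.00365) and -0.58 ± 0.11 for RPS6KC1 (0.00871). Those 6 kept their calls in every leave-one-out fit, but with only the 9 arrays fitted PPFIBP2 (0.0605), SH3RF2 (0.0753), LMCD1 (0.0670) and RPS6KC1 (0.179) were not called, nor was RPS6KC1 without a filter (0.0549). The rest were RHOBTB1 at -0.84, the non-coding RNA GRASLND at -0.73, the glycogen-targeting phosphatase subunit PPP1R3B at -0.69 and PARP8 at -0.61. They also included the mitochondrial tRNA methyltransferase TRMT61B at -0.51, the protocadherin PCDH18 at -0.42 and the mitotic kinase NEK6 at -0.40 (not called with the block, limma adjusted p = 0.0565). Of these, RHOBTB1 was lost in 3 fits, PARP8 in 4, TRMT61B in 6, GRASLND, PCDH18 and NEK6 in 7 and PPP1R3B in 8.

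MYC, the growth-promoting transcription factor most often followed after BET inhibition, was not called at this dose and time. It was at 8.86, 8.90, 8.73 and 8.67 in DMSO and 8.15, 8.39, 8.39, 8.60 and 8.35 at 75 nM. The groups did not overlap, yet the difference of -0.41 ± 0.13 (95% interval -0.69 to -0.14) had a limma adjusted p of 0.222. TXNIP, which restrains glucose uptake, was at 8.50, 7.76, 8.65 and 7.89 and then 8.42, 9.12, 8.37, 8.92 and 8.43, with overlap and a difference of 0.45 (limma adjusted p = 0.391). MXD1, a MYC antagonist, had 0.73 (limma adjusted p = 0.0825, and 0.0345 with the code sets as a block). None of the 9 tested genes of the MYC network was called. A list of 17 response markers reported for BET inhibitors, 14 of them tested, held HEXIM1 and SERTAD1 as its 2 calls at 75 nM. Over all genes tested, 0.334% were called higher. This marker list had 7 values above 0, 7 below and a median of -0.01. It is not split by direction, so a median near 0 does not show an absent response. Of the 14, 4 were higher and 4 lower at an unadjusted limma p below 0.05, beside 3.24% and 5.48% of all genes. At 468 nM and 4 h, 12 of the 14 were called, beside 10.9% of all genes. The list was chosen with earlier results of these data known. None of 9 tested reference genes was called, and their values ran from -0.10 to 0.23.

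FOSL1, an AP-1 subunit, was at 7.73, 7.71, 7.58 and 7.27 in DMSO and 7.52, 7.56, 7.50, 7.24 and 6.98 at 75 nM. CCND1, the G1 cyclin D1, was at 9.32, 8.62, 9.08 and 8.90 and then 8.68, 8.88, 8.83, 8.70 and 8.58. SERPINI1, a neuronal serine protease inhibitor, was at 7.66, 8.09, 6.63 and 7.93 and then 8.30, 7.66, 7.83, 7.10 and 7.98. All 3 overlapped between groups. Their differences of -0.22, -0.25 and 0.20 had 95% intervals of -0.53 to 0.10, -0.49 to 0.00 and -0.30 to 0.69 and did not pass (limma adjusted p = 0.808, 0.579 and 0.928).

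Several lists held no called gene. In the histone list, 11 of 14 tested values were above 0 with a median of 0.18; the H2B gene H2BC5 had 1.10 ± 0.27 with a limma adjusted p of 0.0504, and H2BC14 had -0.86 (0.579). Of 25 ribosome biogenesis genes, 21 had values below 0 with a median of -0.13, and the largest was -0.35 for the nucleolar protein gene NOP16. Among 19 mitosis genes 15 were below 0, led by the kinase AURKA at -0.70 (limma adjusted p = 0.129). Of 11 interferon-stimulated genes 10 were below 0, led by RTP4 at -0.76 (adjusted p = 0.141). The 16 tested genes of the BCL2 family and apoptosis had a median of 0.00, with the survival gene BCL2 at -0.55 (adjusted p = 0.279). Among the 10 tested melanocyte lineage genes the largest value was 0.53 for S100B (adjusted p = 0.606). The lists of heat shock, cholesterol synthesis, amino acid and unfolded protein stress, lysosome, G1/S and replication, and undifferentiated or mesenchymal genes had no call, with medians between -0.07 and 0.07. Over all genes 5179 of the 9285 values were below 0, and unadjusted p-values under 0.05 numbered 810 (8.72%), with 301 higher (3.24%) and 509 lower (5.48%). Members of a list share arrays, and these counts were not tested.

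**Figure D3:**
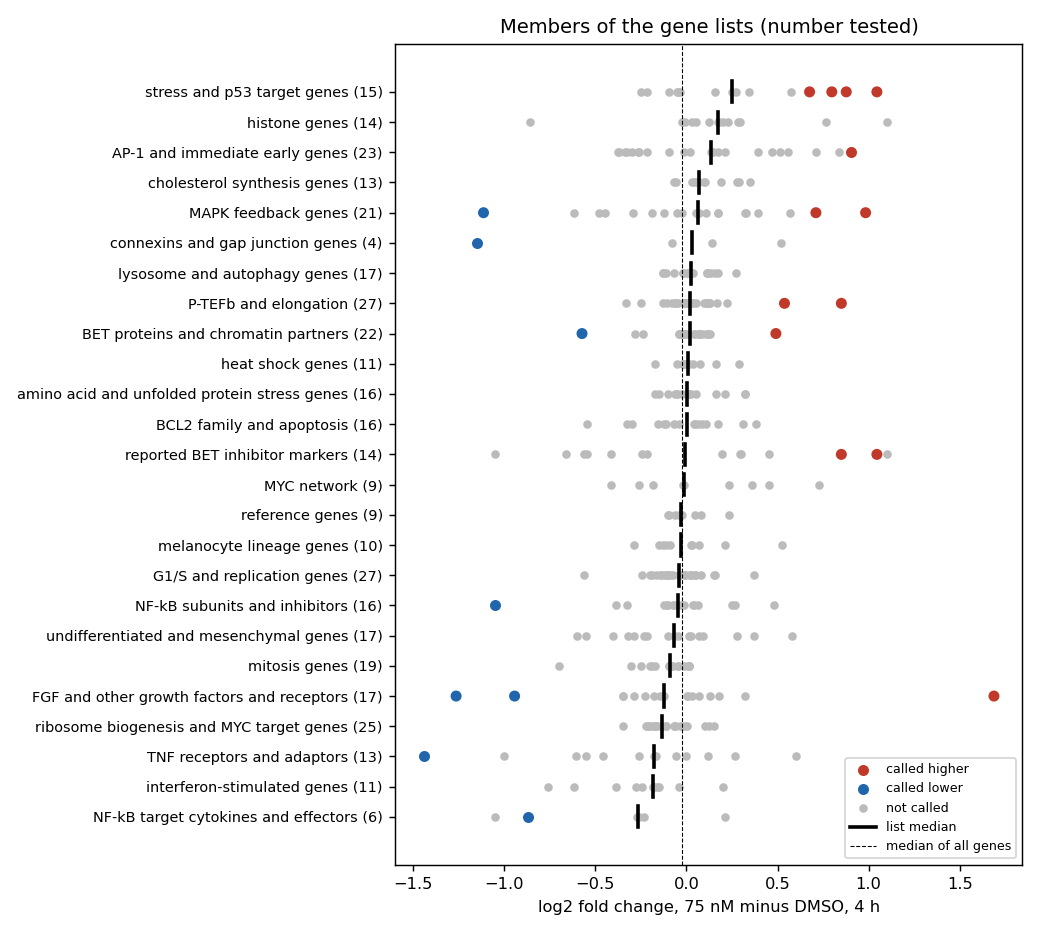
Each point is a tested member of a gene list, placed by its log2 fold change of 75 nM over DMSO at 4 h (x axis); rows are the lists with at least 4 tested members, sorted by their median (black bar), and the dashed line is the median of all genes, -0.02. Red and blue points are called genes; the stress list at the top has 4 red points, and the NF-kB target list at the bottom has a median of -0.27.

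The question the design names is how the response depends on dose. At 468 nM and 4 h all 31 rises and all 32 falls were called in the same direction. In that comparison, which shares the 4 DMSO arrays, 1013 of 9285 genes (10.9%) were called, 3.96% higher and 6.95% lower. The split of these calls depends on the scaling: 368 were higher and 645 lower as deposited, 469 and 550 with quantile normalization repeated, and 196 and 1011 with arrays shifted to level the reference genes, which moved the median of all genes from -0.03 to -0.15. Set side by side, the change of HEXIM1 was 0.85 at 75 nM and 1.67 at 468 nM, that of SERTAD1 1.05 and 2.04, that of GADD45A 0.88 and 1.94, and that of TOB1 0.70 and 1.66. GJD2 changed by -1.15 and -2.67, TNFAIP3 by -1.05 and -2.07, CSF1 by -0.87 and -1.66, and PDGFB by -0.94 and -1.86. All 31 rises and 29 of the 32 falls were further from DMSO at 468 nM than at 75 nM. That count uses the 75 nM arrays on which the genes were chosen, and its counterpart over all genes is not given here.

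The direct comparison of the doses called 20 of the 31 rises and 15 of the 32 falls, each further from DMSO at 468 nM, where 2.56% of all genes were called, 1.13% higher and 1.43% lower; it uses the 75 nM arrays on which the genes had been chosen. The reference gene shift, which moved the median of all genes here from -0.01 to -0.13, gave 42 higher and 212 lower. The largest dose difference among the rises was that of GADD45A, 1.06 ± 0.15 (limma adjusted p = 0.00013), and among the falls that of GJD2, -1.53 ± 0.17 (limma adjusted p = 1.69e-05). Other genes showed no dose difference past the threshold. CCNT2 was at 5.90 ± 0.06 (SD, n = 5) at 75 nM and 5.92 ± 0.15 (SD, n = 5) at 468 nM, a difference of 0.02 with a 95% interval of -0.18 to 0.22. BRD2 differed by 0.09 (-0.06 to 0.24), SYVN1 by 0.02 (-0.21 to 0.24), SESN1 by 0.04 (-0.27 to 0.35) and CD68 by 0.10 (-0.22 to 0.42). Among the falls, KLF5 differed by 0.01 (-0.33 to 0.35), TRMT61B by 0.02 (-0.19 to 0.24) and TRAF1 by 0.08 (-0.55 to 0.70), the 3 falls that were not further from DMSO at the higher dose. The interval for TRAF1 was the widest of these.

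Genes followed here that missed the threshold at 75 nM differ in what the higher dose shows. MYC averaged 7.72 ± 0.20 (SD, n = 5) at 468 nM, a change of -1.07 (limma adjusted p = 2.59e-06), IL6 4.10 ± 0.99 (SD, n = 5), a change of -3.43 (0.000189), CCND1 8.52 ± 0.23 (SD, n = 5), a change of -0.46 (0.0116), and TXNIP 9.23 ± 0.18 (SD, n = 5), a change of 1.03 (0.000182). FOSL1, BRD3 and SERPINI1 were not called at 468 nM either, with changes of -0.23, 0.20 and 0.61 (limma adjusted p = 0.414, 0.455 and 0.115).

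**Figure D4:**
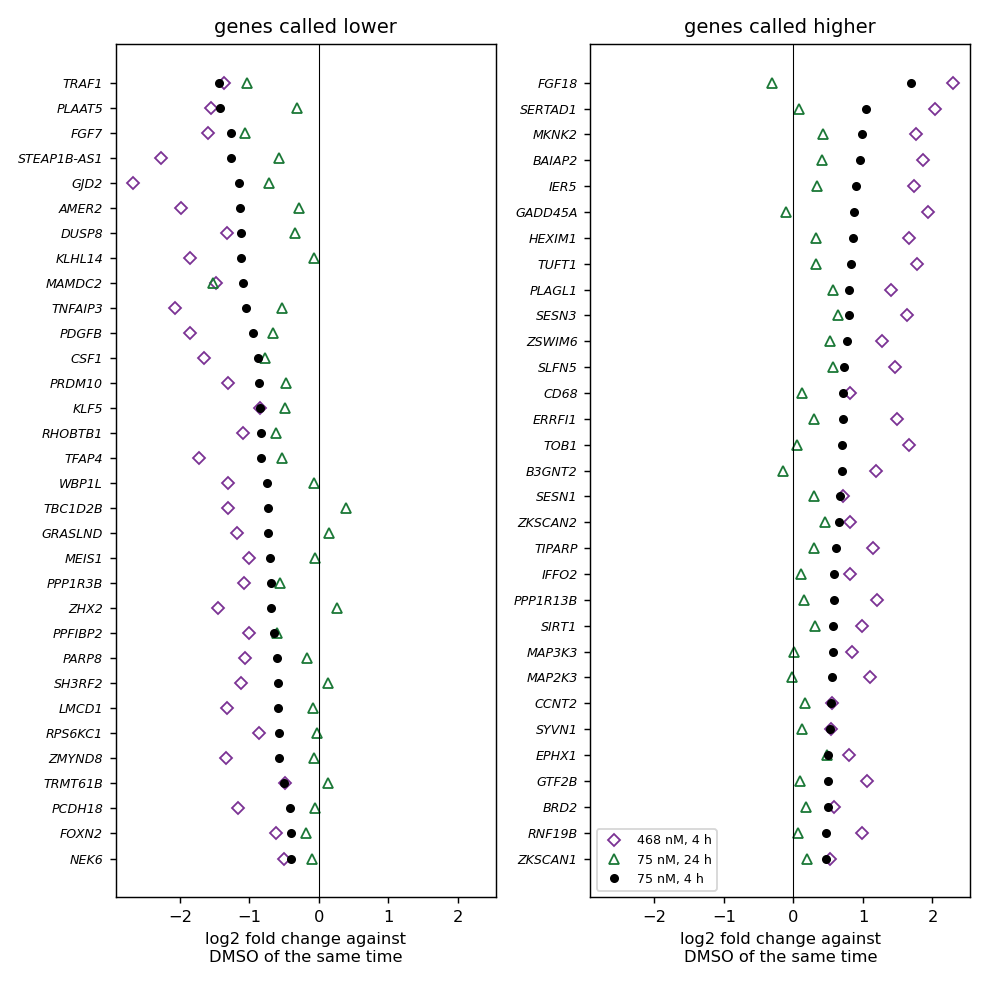
Log2 fold change against DMSO of the same time (x axis) for each of the 32 genes called lower (left) and the 31 called higher (right), as black circles for 75 nM at 4 h, open diamonds for 468 nM at 4 h and open triangles for 75 nM at 24 h. Diamonds lie beyond the circles in 31 rises and 29 falls, and triangles lie nearer to 0 than the circles, or across it, in all rises and all falls but MAMDC2. The genes were chosen by their circles, so triangles nearer to 0 do not show a fading response.

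At 24 h the same dose was measured against its own DMSO arrays. These 9 arrays had entered the filter and the variance estimate behind the calls at 4 h, so they are not independent of the choice of genes. There 27 of the 31 rises and 27 of the 32 falls had the same sign as at 4 h, with median changes of 0.20 and -0.30. The same count over all genes is not given here. The genes were chosen for their values at 4 h, so smaller values at 24 h do not show that the response faded. Over all genes, 1478 had an unadjusted limma p below 0.05 at 24 h and 810 at 4 h. Called in the same direction were 2 rises and 4 falls, against 81 of 9285 genes (0.872%). Of those 81, 37 were higher and 44 lower; the split was 69 and 48 with quantile normalization repeated and 13 and 72 with the reference gene shift. No gene was called the opposite way. The rises were EPHX1 (0.48, limma adjusted p = 0.0246) and PLAGL1 (0.57, 0.0323). The falls were MAMDC2 (-1.52, 0.00762), PPFIBP2 (-0.61, 0.00789), CSF1 (-0.78, 0.0241) and FGF7 (-1.07, 0.0404). With the code sets as a block, 6 rises and 9 falls were called, against 234 genes (2.52%).

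The change between the times was tested as an interaction, which called 3 genes in all (0.0323%), each of them a fall at 4 h. It called 0 without a filter and 0 with the reference gene shift (limma; 1173 and 517 genes had an unadjusted p under 0.05), and 1 without DMSO array 1 or 2 at 4 h or DMSO array 3 at 24 h. ZHX2 changed by -0.69 at 4 h and by 0.26 at 24 h, a difference of 0.95 ± 0.15 (limma adjusted p = 0.00968). TBC1D2B went from -0.73 to 0.39 (difference 1.13 ± 0.20, limma adjusted p = 0.0187), and SH3RF2 from -0.59 to 0.13 (difference 0.72 ± 0.13, limma adjusted p = 0.0187). With the code sets as a block 11 genes were called, 5 of them among the 63: these 3, GRASLND (limma adjusted p = 0.0432) and FGF18 (0.0288), whose change was 1.69 at 4 h and -0.31 at 24 h. HEXIM1 was at 0.85 and 0.32, SERTAD1 at 1.05 and 0.08 and GADD45A at 0.88 and -0.11 at the 2 times, and their differences did not pass (limma adjusted p = 0.469, 0.171 and 0.171).

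**Figure D5:**
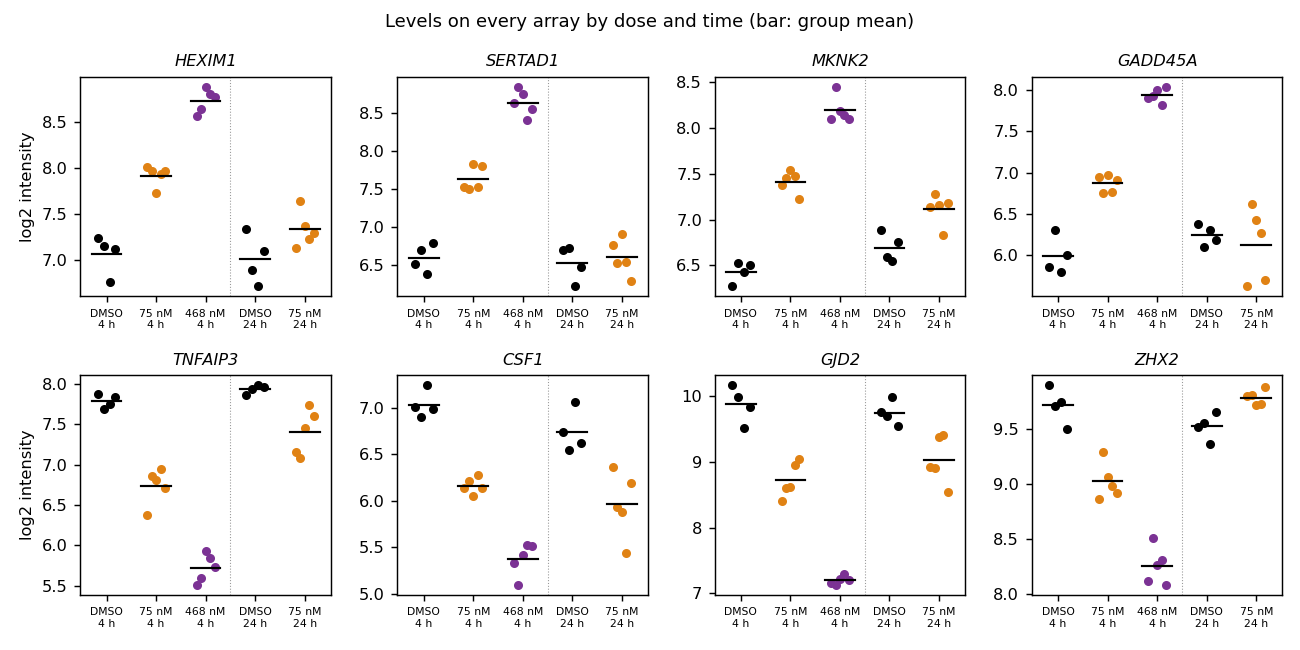
Log2 intensity (y axis) of 8 called genes on every array of 5 groups: DMSO, 75 nM and 468 nM at 4 h, and DMSO and 75 nM at 24 h; dots are arrays and bars are group means. HEXIM1, SERTAD1, MKNK2 and GADD45A step up and TNFAIP3, CSF1, GJD2 and ZHX2 step down with dose at 4 h; at 24 h the 75 nM mean of ZHX2 lies above its DMSO mean, and that of CSF1 lies below.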

How the data were processed

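Total RNA of 28 CHL-1 samples was measured on 1-colour Affymetrix gene arrays. The authors deposited 53617 linear probe set intensities per array, made with RMA per the submitters' processing notes; its version is not given in the sources used here. Array medians lay between 2.44 and 2.49 on the log2 scale, to which the deposited intensities were converted. Probe sets with 1 gene symbol in the platform table (23871) were named through RefSeq; 1842 with several symbols and 27904 that the table does not list went unnamed. The brightest probe set stood for each of 22357 genes, and 9285 with log2 above 5 on at least 4 arrays were tested. limma 3.58.1 (R 4.3.3) fitted 6 group means to all 28 arrays (22 residual and 3.84 prior degrees of freedom), with Benjamini-Hochberg adjustment over all genes tested; a gene was called at an adjusted p below 0.05. The fit was run on simulated data with independent noise on each array, to check that the log2 changes set there were recovered. The rate of false calls was not part of that check. Errors after a log2 change are standard errors.

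Array numbers within a group follow accession order. The titles' codes fall in sets of 26; deviations from group means of same-set DMSO and 75 nM arrays at 4 h correlated at 0.324, 0.108, 0.135 and 0.323 (of 16 pairs from different sets, 3 were also above 0.1, at 0.112, 0.129 and 0.199), so the sets were treated as pairing arrays and used as a replicate block in an alternative fit. 75 nM array 1 has no DMSO partner at 4 h. Alternatives changed the filter, the arrays fitted, the normalization, the probe set rule and the variance model, and left out each array.

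Every called gene could be named. Full values were given for the 12 largest rises and falls, for called list members, and, called or not, for HEXIM1, BRD2, BRD3, MYC, FOSL1, CCND1, SERPINI1, TXNIP and IL6. Another gene of that rule is not reported here. The genes followed and the 29 lists were chosen with earlier results of these data known. Promoter windows (RefSeq, GRCh38.p14) matched 50 of the 63 called genes by symbol.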

Additional observations from a re-analysis of the deposited data

Results flagged for a closer look

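In 75 nM array 3 at 4 h, HEXIM1 was lower (7.72) than on the other four arrays of its group, which lay close together, and in 75 nM array 5 CD68 was lower (4.99) than on the others. Both remained above every DMSO array. These were the 2 such samples among 74 groups of 4 or 5 arrays examined, and chance alone gives about 1 in 20.

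The effect of 75 nM differed between 24 h and 4 h, by limma's interaction test, for 3 genes that fell at 4 h: by 0.95 for ZHX2, by 1.13 for TBC1D2B and by 0.72 for SH3RF2 on the log2 scale. At 24 h each gene's 75 nM mean was above its DMSO mean, by 0.26, 0.39 and 0.13, none of which passed on its own (limma adjusted p = 0.223, 0.168 and 0.517).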

How the results depend on the processing

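No direction of a called gene turned under any alternative run. Of the 63 genes, 14 were called in all 9 leave-one-out fits and all 8 other alternatives: SERTAD1, MKNK2, GADD45A, HEXIM1, TUFT1, ZSWIM6, ERRFI1, TOB1, B3GNT2, GJD2, TNFAIP3, WBP1L, TBC1D2B and ZHX2. Genes too dim to be tested with the filter at 7 could not be among them. FGF18, BAIAP2, PDGFB, CSF1 and PRDM10 are outside the 14 for that reason alone and were called in every fit that tested them. The count of 63 became 28 without a filter on dim genes (25 shared), 31 when only the 9 arrays were fitted (25 shared) and 36 when arrays were shifted to level the reference genes (all among the 63), and lay between 39 and 50 in the leave-one-out fits. For 468 nM at 4 h, 1013 became 616 with the filter at 7, and for the doses at 4 h, 238 became 123 without a filter. These counts rest on unlike numbers of genes tested: 9285 as reported, 4986 with the filter at 7 and 22357 without a filter. A smaller count is therefore not always a smaller share. For 75 nM at 24 h, 81 became 18 without a filter and 98 with the filter at 7. The count became 52 with its own groups alone and 234 with the replicate block, and lay between 41 and 87 in the leave-one-out fits. The interaction count of 3 became 11 with the block, 0 without a filter and 0 with the shift (limma; 1173 and 517 genes had an unadjusted p under 0.05), and lay between 1 and 5 in the leave-one-out fits. With the replicate block 82 genes were called at 4 h; 60 were shared, and CD68 (adjusted p = 0.0648), IFFO2 (0.0623) and NEK6 (0.0565) were not. The causes were not tested. Genes whose means lie under the filter have the least certain changes, and intensity over background was not measured.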
